A study of Mus musculus with 26 samples.

Results

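The clustered protocadherin genes are 58 mouse genes in 3 neighbouring arrays on chromosome 18. They comprise 14 Pcdha, 22 Pcdhb and 22 Pcdhg genes, chosen by position, of 27083 genes in the RefSeq table of GRCm38. The first starts lie at 36930285 (Pcdha1), 37264998 (Pcdhb1) and 37661775 (Pcdhga1) and the last at 37143678 (Pcdhac2), 37518353 (Pcdhb22) and 37819546 (Pcdhgc5). CpG positions were used with at least 10 reads in a library. Of 2626470 positions with that depth in at least 1 library, 1471 lay in or between the arrays. Array positions below are those within the gene spans and up to 2000 bp beyond them, less at the outer edges of the region, and leave out the stretches between arrays. Each gene was also measured by its start window, the 2000 bp either side of the RefSeq start. The members are transcribed in the same direction, and positive distances below run downstream from a start.

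The arrays encode neuronal cell-surface adhesion proteins that give a nerve cell its surface identity. Each variable exon has a promoter of its own, and a neuron uses a few of them, chosen largely at random, through CTCF and cohesin looping and the methylation of promoter CpGs. The C-type members Pcdhac1, Pcdhac2, Pcdhgc3, Pcdhgc4 and Pcdhgc5 are used more constantly. The values below are from sperm, not from neurons.

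Methylation was measured by reduced representation bisulfite sequencing (RRBS), which reads CpGs in short, CpG-rich fragments, in cauda epididymal sperm of 26 mice, all of it from DBA/2J germ cells. SSCT F0 (n = 3) were sterile W/W-v males of the WBB6F1/J background that carried cultured and transplanted neonatal DBA/2J spermatogonial stem cells (SSCT, spermatogonial stem cell transplantation). Control F0 (n = 3) were untreated DBA/2J males, and both F0 groups were 16 to 18 months old. The offspring groups (n = 5 each, 3 months old) were SSCT F1, sired by transplanted males with untreated DBA/2J females, control F1 from untreated DBA/2J parents, SSCT F2/M from SSCT F1 mothers and control fathers, and SSCT F2/P from SSCT F1 fathers and control mothers. Age and generation therefore cannot be told apart between F0 and offspring, and host strain, cell culture and transplantation cannot be told apart within F0.

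The names of the offspring groups were in conflict. The groups below follow the sample titles. The study's own clustering plot gives the libraries titled SSCT F1 as SSCT F2/P, control F1 as SSCT F2/M, SSCT F2/M as control F1 and SSCT F2/P as SSCT F1, and the treatment field marks the libraries titled SSCT F2/M as WT. Values over all 20 offspring and the test across the 4 offspring groups do not rest on these names. The comparisons between titled groups do, and changed with them as given below.

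Read counts summed over CpG positions ran from 45616751 to 87707577 per library. The share of methylated calls was 98.2% to 98.9% in the methylated spike-in and 0.542% to 1.26% in the unmethylated spike-in. Sperm DNA was checked by regions whose methylation differs from somatic cells. Promoters of germline genes, unmethylated in sperm, averaged 2.73% to 6.43% and maternally imprinted promoters 2.02% to 9.89% in the 26 libraries. The region upstream of H19, which sperm methylates, was at 88.8% or above in 24 libraries, at 0% over its 1 measured position in SSCT F0 replicate 2 and not measured in SSCT F0 replicate 3. These same libraries stood apart in the arrays. SSCT F0 replicate 3 had 121 array positions at a median of 402 reads, and replicate 2 had 712 at 48, against 848 in replicate 1, 794 to 922 in control F0 and 764 to 932 in the offspring. The library protocol gives a lower DNA input for 3 libraries, and their numbers match the files of the 3 SSCT F0 mice. No molecular identifiers are named for these libraries, so reads may not be independent molecules and a test on reads covers counting error only.

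In the sperm of the offspring most array positions that were read had low methylation. Of the 338 positions read in all 20 mice, 291 lay within 2000 bp of a member's start, so the arrays farther from starts were little sampled. Over the 338 positions read at least 10 times in all 20 mice, the mean level was 11.9% ± 0.424 (SD, n = 20 mice), with a range of 11% to 13%. It was 13.7% ± 1.49 over 56 Pcdha positions, 15.7% ± 1.19 over 73 Pcdhb positions and 10.1% ± 0.572 over 209 Pcdhg positions. These means combined many positions near 0 with few that were high: the median position was at 2.46%, 81.1% of positions were under 10% and 5.33% were over 80%.

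The low positions lay mostly near the starts. Of 291 positions within 2000 bp of a member's start, 255 (87.6%) were under 10% and the median was 1.88%. Among the 17 positions from 2000 to 5000 bp downstream, 13 were under 10%. The 4 positions from 2000 to 5000 bp upstream averaged 49.5%. Among the 26 positions over 5000 bp away, the median was 88.6% and 19 (73.1%) were over 50%. Examples were 3 positions from -14411 to -14387 bp at Pcdhgc3, which averaged 99.3% to 100%.

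**Figure D1:**
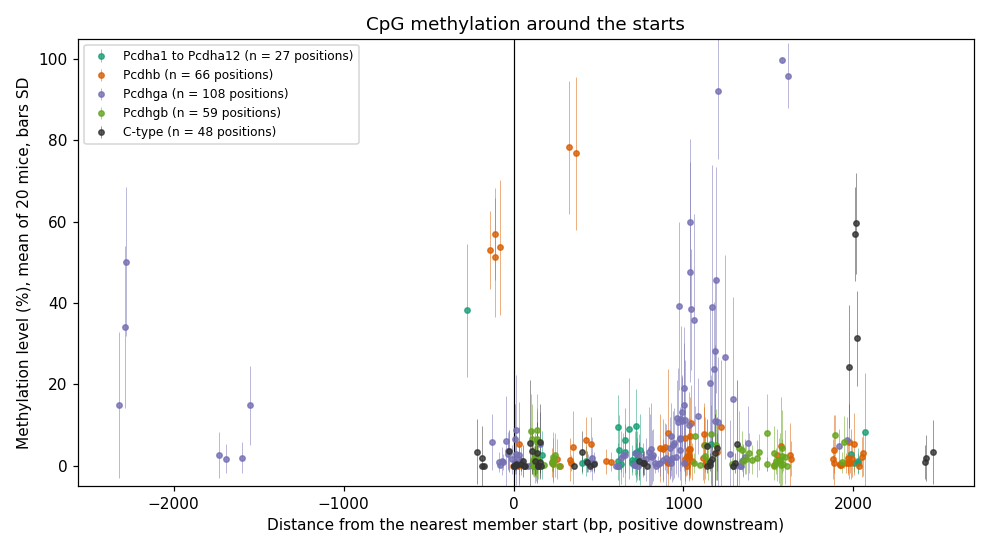
Methylation level in percent (vertical axis) of each array position read in all 20 offspring against its distance in bp from the nearest member start (horizontal axis). Points are means over 20 mice and bars are SD. Positions within 2500 bp are drawn. Most points lie near 0, and raised ones include Pcdhb13 around its start, Pcdhga genes 1000 to 1500 bp downstream and the C-type gene Pcdhgc5 at about 2000 bp.

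Start windows could be compared between mice for only part of the family. At least 3 positions read in all 20 offspring were present in 28 of the 58 windows (6 of 14 Pcdha, 6 of 22 Pcdhb and 16 of 22 Pcdhg), with 3 to 21 positions and 33 to 2027 reads per mouse. Another 11 members had 1 or 2 such positions. The other 19 had none (5 Pcdha, 12 Pcdhb, 2 Pcdhg), although only 3 of the 58 had no position with 10 reads in any library. The members are close paralogues and reads were 50 bp long, so reads may have been lost or misplaced between copies. The start window of Pcdhga12 shares positions with that of Pcdhgb8.

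Of the 28 windows, 24 (85.7%) were under 10%, against 84.5% of the windows of 11971 genes measured in the same way. The median window was at 2.65% in the arrays and at 2.03% over all genes. The C-type members were among the lowest. Pcdhgc4 was at 0.445% ± 1.11 over 3 positions (SD, n = 20), Pcdhac1 at 1.43% ± 1.92, Pcdhac2 at 1.46% ± 1.58 and Pcdhgc3 at 1.55% ± 1.24 over 20 positions. No mouse exceeded 7.09% in any of these 4 windows. Pcdhgc5 had 1 such position, 1976 bp downstream, at 24.4% ± 15.2.

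Within Pcdha, Pcdha5 had the highest window at 7.22% ± 3.06 and Pcdha4 had the widest spread at 3.73% ± 3.74, with 1 mouse at 15.9%. The level of Pcdha5 came from a position at -273 bp, at 38.2% ± 16.4, while the other 5 of its positions were at 0% to 3.72%. Pcdha8 (1.44% ± 2.63) and Pcdha12 (3.81% ± 2.74) completed the measured Pcdha genes. Within Pcdhb, Pcdhb1, which stands apart at the front of its array, was at 2.09% ± 1.01 over 19 positions. Pcdhb2 (2.65% ± 1.72), Pcdhb3 (3.40% ± 2.00), Pcdhb10 (2.53% ± 4.67) and Pcdhb17 (5.36% ± 3.63) were low as well. In Pcdhg the lowest windows after Pcdhgc4 were Pcdhga5 (0.633% ± 1.57) and Pcdhga12 (1.45% ± 1.59), and the highest of those under 10% was Pcdhga4 at 8.54% ± 3.31 over 21 positions.

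4 windows were above 10%. Pcdhb13, a member of the beta array, was at 61.7% ± 7.09, from 49.1% to 75.2% in the 20 mice. Its 4 positions from -138 to -77 bp were at 51.2% to 56.9% and its 2 positions at 324 and 370 bp downstream at 78.3% and 76.8%. The other 5 measured beta windows averaged at most 5.36%. Pcdhga1, the first gene of the gamma array, was at 55.0% ± 11.3, from 32.5% to 74.2%. Pcdhga3 was at 17% ± 6.10 and Pcdhga2 at 11.2% ± 7.63. Every mouse was higher for Pcdhb13 and Pcdhga1 than the highest mouse (16.2%, Pcdhga4) in any of the 24 low windows, whereas the mice for Pcdhga2 and Pcdhga3 overlapped them.

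**Figure D2:**
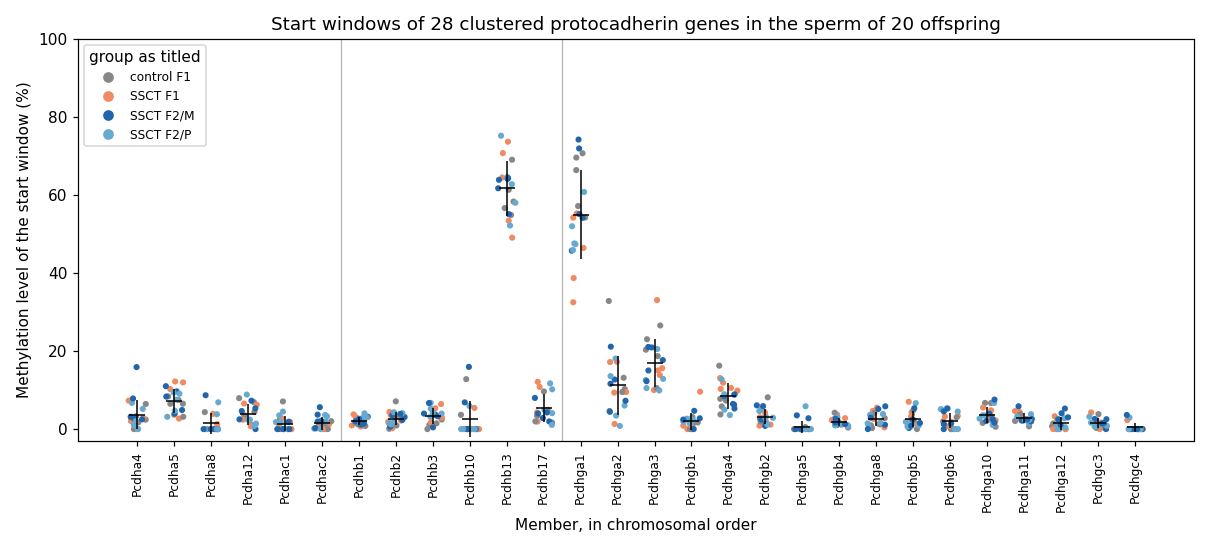
Methylation level in percent (vertical axis) of the 28 start windows with at least 3 positions read in all 20 offspring, in chromosomal order. Each point is 1 mouse coloured by group as titled, and black marks are mean and SD over 20 mice. Pcdhb13 and Pcdhga1 stand between 32.5% and 75.2%, and 24 windows average under 10%.

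Only part of the raised gamma positions fell in the same stretch of different genes. Of the 209 gamma positions, 17 averaged 20% to 80% and 9 averaged over 80%. Between 1000 and 1500 bp downstream of a start, 28 positions in 7 Pcdhga genes averaged 20.6%, and 11 of them, in 5 genes, were over 20%. They included Pcdhga1 at 1204 bp (92.1% ± 16.6), Pcdhga4 at 1194 bp (45.7% ± 27.8), Pcdhga2 at 1170 bp (39.0% ± 35.0), Pcdhga3 at 1045 bp (38.5% ± 14.9) and Pcdhga10 at 1245 bp (26.7% ± 25). In the same stretch the 19 positions in 5 Pcdhgb genes averaged 3.12% and none was over 8.12%. From 0 to 500 bp, Pcdhga (1.93% over 19 positions) and Pcdhgb (2.25% over 25) were both low. Positions of 1 gene and 1 fragment share reads, and this stretch was picked after the levels were seen, so no test was made. Exon limits were not used here. Pcdhga7 had only 2 positions, 1581 and 1613 bp downstream, and these were at 99.8% and 95.9%.

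The spread between mice was widest at partly methylated positions, where a level bounded at 0% and 100% has the most room to vary. The 48 positions with means between 10% and 90% had a median SD between mice of 16.1 percentage points against 6.09 that independent reads would give. Copies made by PCR can widen this spread, and their part was not tested. Their ranges over the 20 mice had a median of 57.5 points. At Pcdhga2, 1170 bp downstream, mice ran from 0% to 100%, and at Pcdhga1, 1037 bp downstream, from 0% to 83.0%. The 274 positions at 10% or less had a median SD of 4.56 points against 1.99, and the 16 at 90% or more 5.36 against 2.46.

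The mean level of the arrays did not separate the 4 offspring groups. By title it was 11.5%, 12.6%, 11.9%, 12.1% and 12.1% in the SSCT F1 mice and 12.1%, 12.3%, 12.1%, 12.1% and 11.7% in the control F1 mice. In the SSCT F2/P mice it was 11%, 11.5%, 12.1%, 12% and 11.6%, and in the SSCT F2/M mice 11.9%, 11.7%, 12%, 11.5% and 13%. All 4 groups overlapped, and a permutation test of the F ratio across them (100000 shuffles) gave F = 1.18 and p = 0.353. In the F0 males the same positions, as far as read, were at 13.3%, 11.2% and 11.5% in control F0 and at 14.4%, 11% and 3.41% in SSCT F0. The last value is replicate 3, over 59 of the 338 positions. It was made up of 28.6% over 7 Pcdhb, 0.0207% over 8 Pcdha and 0.0221% over 44 Pcdhg positions. The Pcdhb value came from 2 Pcdhb1 positions at 100%, described below.

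The start windows of the raised genes were compared by group. Pcdhb13 was at 62.3% ± 10.7 in SSCT F1, 60.04% ± 5.56 in control F1, 62.5% ± 8.55 in SSCT F2/P and 61.8% ± 3.91 in SSCT F2/M (n = 5 each), and at 55.3%, 63.5% and 57.3% in the 3 control F0 mice. All these groups overlapped. Pcdhga1 was at 38.7%, 54.2%, 55.3%, 32.5% and 46.4% in the 5 SSCT F1 mice and at 57.2%, 70.7%, 66.4%, 69.6% and 54.2% in the 5 control F1 mice. It was at 50.7% ± 6.06 in SSCT F2/P, 60.2% ± 12.3 in SSCT F2/M and 50.4% ± 9.04 in control F0 (n = 3). The SSCT F1 and control F1 mice overlapped narrowly, and the test of this window is given below with the SSCT F1 comparison.

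**Figure D3:**
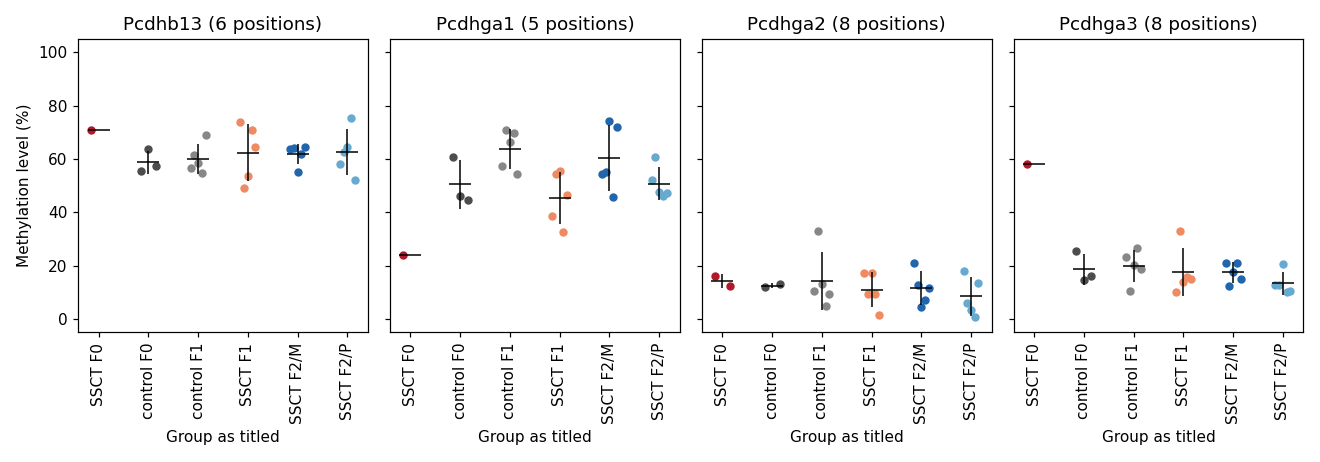
Methylation level in percent (vertical axis) of the start windows of Pcdhb13, Pcdhga1, Pcdhga2 and Pcdhga3 in the 6 groups as titled. Points are mice in which every matched position was read, and black marks are mean and SD. Offspring groups and control F0 overlap in all 4 genes, and SSCT F0 replicate 1 lies at 24.1% for Pcdhga1 and 58.0% for Pcdhga3.

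The 3 transplanted males were described one by one. Array positions at exactly 0% made up 71.3% of positions in SSCT F0 replicate 1, 86.4% in replicate 2 and 85.1% in replicate 3, against 71.5% to 75.4% in control F0 and 71.5% to 77.1% in the offspring. Positions between 10% and 90% made up 16.3%, 4.63% and 1.65% in the 3 SSCT F0 mice, against 13.8% to 15.2% in control F0 and 12% to 16.1% in the offspring. Replicates 2 and 3 thus had few intermediate positions, and these were also the libraries with the fewest positions read. Mean levels over the whole genome were taken over each library's own positions with at least 10 reads, so they cover different CpGs. SSCT F0 replicates 1 to 3 had 1527632, 965381 and 175649 such positions. The mean was 30.7%, 17.7% and 6.36% in these replicates and 31.6% to 37.6% in the other 23 libraries. The part of DNA input, depth or mouse in this was not tested.

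**Figure D4:**
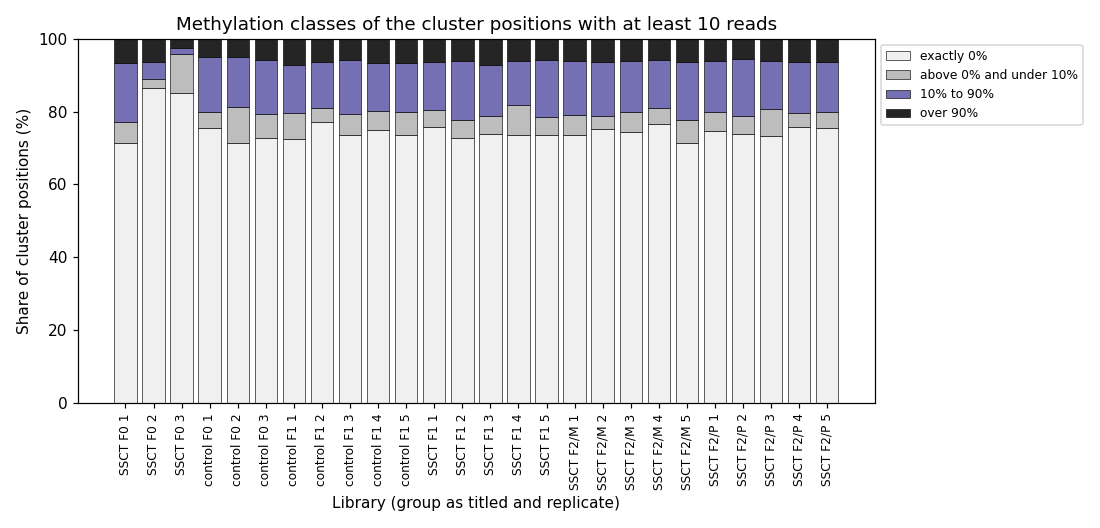
Share in percent (vertical axis) of each library's array positions with at least 10 reads that were at exactly 0%, above 0% and under 10%, at 10% to 90%, or over 90%, for the 26 libraries (horizontal axis). SSCT F0 replicates 2 and 3 have 4.63% and 1.65% of positions at 10% to 90%, and the other libraries 12% to 16.3%.

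Single windows were set against the range of the 20 offspring. In SSCT F0 replicate 1, 6 of 26 array windows read at every matched position (23.1%) lay outside it, against 10.6% of 10483 gene windows in the same library. They were Pcdhga3 at 58.0% (offspring 9.90% to 33.1%), Pcdha5 at 22.6%, Pcdhga4 at 21.5%, Pcdhb3 at 11% and Pcdhb1 at 5.99% above it, and Pcdhga1 at 24.1% below it. In replicate 2, 3 of 18 (16.7%) lay outside, against 23% of 4588, namely Pcdha8 at 12.7% and Pcdhgb4 at 11.2% above and Pcdhb1 at 0.286% below. Replicate 3 was below the offspring at Pcdha5, 1 of its 2 windows, against 12.1% of 215. In control F0 it was 3 of 26, 3 of 27 and 2 of 26, against 8.1%, 4.05% and 6.29% of all windows. In replicate 2, Pcdhga1 was at 0% over 4 positions and Pcdhga3 at 0% over 2.

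Whether transplantation altered the arrays in the transplanted males was asked with SSCT F0 against control F0. Only 68 array positions were read in all 6 libraries, and their mean was 5.11%, 4.89% and 2.97% in SSCT F0 and 2.09%, 2.64% and 3.18% in control F0. The groups overlapped (difference 1.68 points, exact permutation test, two-sided p = 0.2, with 0.1 the smallest that 3 against 3 allows). A differentially methylated CpG (DMC) was called at q under 0.01 by a logistic likelihood ratio test and a read-weighted difference over 25 points. 2 of the 68 positions were DMCs, against 5.83% of 82250 positions genome-wide. Both lay in Pcdhb1, at 1119 and 1128 bp downstream (37266117 and 37266126, plus strand). The first was at 14.1%, 1.02% and 100% in SSCT F0 and 1.11%, 10.0% and 1.90% in control F0, and the second at 0%, 1.00% and 100% against 0%, 4.55% and 7.62%. Both rested on replicate 3, and neither was called without it. They also raised the mean of replicate 3 over the 68 positions. That mean combined 28.6% over 7 Pcdhb, 0.0148% over 13 Pcdha and 0.0351% over 48 Pcdhg positions.

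With SSCT F0 replicate 3 left out, 454 array positions could be tested and 27 (5.95%) were DMCs, 21 higher and 6 lower in SSCT F0, against 5.83% of 599359 genome-wide. The 2 shares were close, and no genome-wide split by direction is given here. Among the 27 were 2 positions of Pcdhac1, at 1847 and 1857 bp downstream. These were at 27.9% and 48.8%, and 29.5% and 46.6%, in the 2 SSCT F0 mice and at 0% in all 3 control F0 mice. Pcdhga4 at -2170 bp was at 84.2% and 100% against 29.0%, 25.2% and 41.4%. Pcdhga1 at 1204 bp was lower, at 36.4% and 0% against 70.7%, 100% and 100%, and at 1037 bp was at 0% in both against 87.8%, 9.38% and 31.2%. At Pcdhgb4 (1585 bp) and Pcdhgc3 (-47 bp), replicate 2 was at 100% and replicate 1 at 0%. Pcdha4 at 746 bp and Pcdhga5 at 525 bp were likewise at 0% in replicate 1, and at 75.8% and 50.6% in replicate 2. With 2 against 3 mice the smallest exact p is 0.1. The mean over these 454 positions was 9.63% and 8.02% against 8.06%, 7.21% and 6.81% (exact permutation p = 0.3).

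Differentially methylated regions (DMRs) were 1000 bp windows under the same thresholds. In SSCT F0 against control F0, 1 of 23 array windows was a DMR, against 10% of 19604 genome-wide, and it held the 2 Pcdhb1 positions. Without replicate 3, 5 of 84 windows were DMRs (10.1% of 94036 genome-wide), all higher in SSCT F0, with no genome-wide split by direction given. They lay far upstream of Pcdhac1 (100% and 100% against 76.5%, 40.7% and 58.7%), in Pcdhac1, upstream of Pcdhga4, upstream of Pcdhga10 and in Pcdhgb8 (7.50% and 61.5% against 0% in all 3). Start windows were tested with limma across all genes. None of 10 array windows had an adjusted p under 0.05 (0% of 6437 genes called), and none had an unadjusted p under 0.05. Without replicate 3, none of 32 was called (0% of 12846 genes) and 3 had an unadjusted p under 0.05, namely Pcdhgb8, Pcdhac1 and Pcdhb10, against 8.30% of all genes.

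Whether the arrays differed in the next generations was asked with the SSCT offspring groups, which share the 5 control F1 mice as reference. These comparisons are therefore not independent. In SSCT F1 against control F1, 1 of 399 array positions was a DMC, against 0.462% of 597327 genome-wide. It lay 2041 bp downstream of Pcdhac1 (37092177, minus strand), at 0%, 0%, 33.3%, 36.4% and 31.6% in SSCT F1 and 58.8%, 20.0%, 19.4%, 84.0% and 61.7% in control F1. The groups overlapped, and the exact permutation test of this position gave p = 0.0952. The only array DMR of 82 (0.415% of 128096 genome-wide) held this same position alone. The mean over the 399 positions was 11.7% ± 0.288 against 11.7% ± 0.268 (difference 0.0207 points, exact permutation p = 0.921).

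None of 31 array start windows was called by limma in SSCT F1 against control F1 (0% of 12879 genes). An unadjusted p under 0.05 was found for 2 of the 31, against 4.98% of all genes. The first of these was Pcdhga1, at 45.4% ± 9.83 against 63.6% ± 7.46 (log2 ratio of methylated to unmethylated reads lower by 1.03, SE 0.341, limma adjusted p = 0.956). The other was Pcdhgb6, at 2.20% ± 1.12 against 1.01% ± 1.42 (limma adjusted p = 0.974). The differences of the 31 windows ran from -18.2 to 4.16 points.

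In SSCT F2/M against control F1, 0 of 421 array positions was a DMC (0.42% of 664292 genome-wide) and 0 of 86 windows a DMR (0.363% of 133746). The F test with overdispersion also called 0 of either, and had an unadjusted p under 0.05 and a difference over 25 points at 0 of them. The mean over the 421 positions was 11.7% ± 0.619 against 11.7% ± 0.193 (difference -0.00463 points, exact permutation p = 1). None of 32 start windows was called (limma, 0% of 13217 genes), and only Pcdhga12 (3.19% ± 1.57 against 1.08% ± 0.940) had an unadjusted p under 0.05, against 5.02% of all genes.

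In SSCT F2/P against control F1, 3 of 435 array positions were DMCs (0.43% of 695138 genome-wide), all lower in SSCT F2/P. Pcdhga1 at 1037 bp (37662812, plus strand) was at 27.6%, 56.3%, 27.1%, 24.5% and 34.0% in SSCT F2/P and 63.8%, 62.8%, 82.5%, 83.0% and 71.4% in control F1. These values did not overlap (exact permutation p = 0.00794, the smallest that 5 against 5 allows). Non-overlap was found at 2 of the 435 positions (0.46%), with no genome-wide share given. It is therefore not read as a trait of the arrays. Exact permutation tests of single positions were run only on positions already called and were left unadjusted. Pcdhb7 at 647 bp (37342349, minus strand) was at 35.0%, 14.8%, 58.3%, 41.5% and 5.88% against 90.5%, 47.4%, 80%, 100% and 100%. Pcdhac1 at -16057 bp (37074079, minus strand) was at 21.4%, 16.4%, 58.6%, 41.9% and 28.2% against 100%, 61.4%, 87.5%, 98.0% and 55.4%. The values of these last positions overlapped between groups (exact permutation p = 0.0159 for each). At all 3 positions the F test with overdispersion gave an adjusted p of 0.621.

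The position in Pcdhb7 was also the only array DMR of 87 in SSCT F2/P (0.392% of 137631 genome-wide). The mean over 435 array positions was 11.7% ± 0.194 in SSCT F2/P and 12% ± 0.220 in control F1. This difference of -0.347 points had an exact permutation p of 0.0397, and 0.794 after adjustment over the 20 mean-level tests of the 5 comparisons. None of 31 start windows was called (limma, 0% of 13390 genes). Pcdhga1 alone had an unadjusted p under 0.05 (5.01% of all genes did), at 50.7% ± 6.06 against 63.6% ± 7.46 (limma adjusted p = 0.952). At Pcdhga1, 1037 bp, the SSCT F1 mice ran from 0% to 80.6%, with SSCT F2/M between 0% and 63.9%.

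The names decide these calls. With the names of the study's clustering plot, or with its F2 lines exchanged, the number of DMCs was 0 for SSCT F2/P and 3 for SSCT F1, both against control F1, and stayed 0 for SSCT F2/M. Genome-wide shares under these names are not given here. At Pcdhga1, 1037 bp, the read-weighted difference was then 10.8 or 24.2 points. The means over mice under the plot's names were 41.2% in SSCT F2/P and 42.9% in control F1, so that the direction depended on the weighting.

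**Figure D5:**
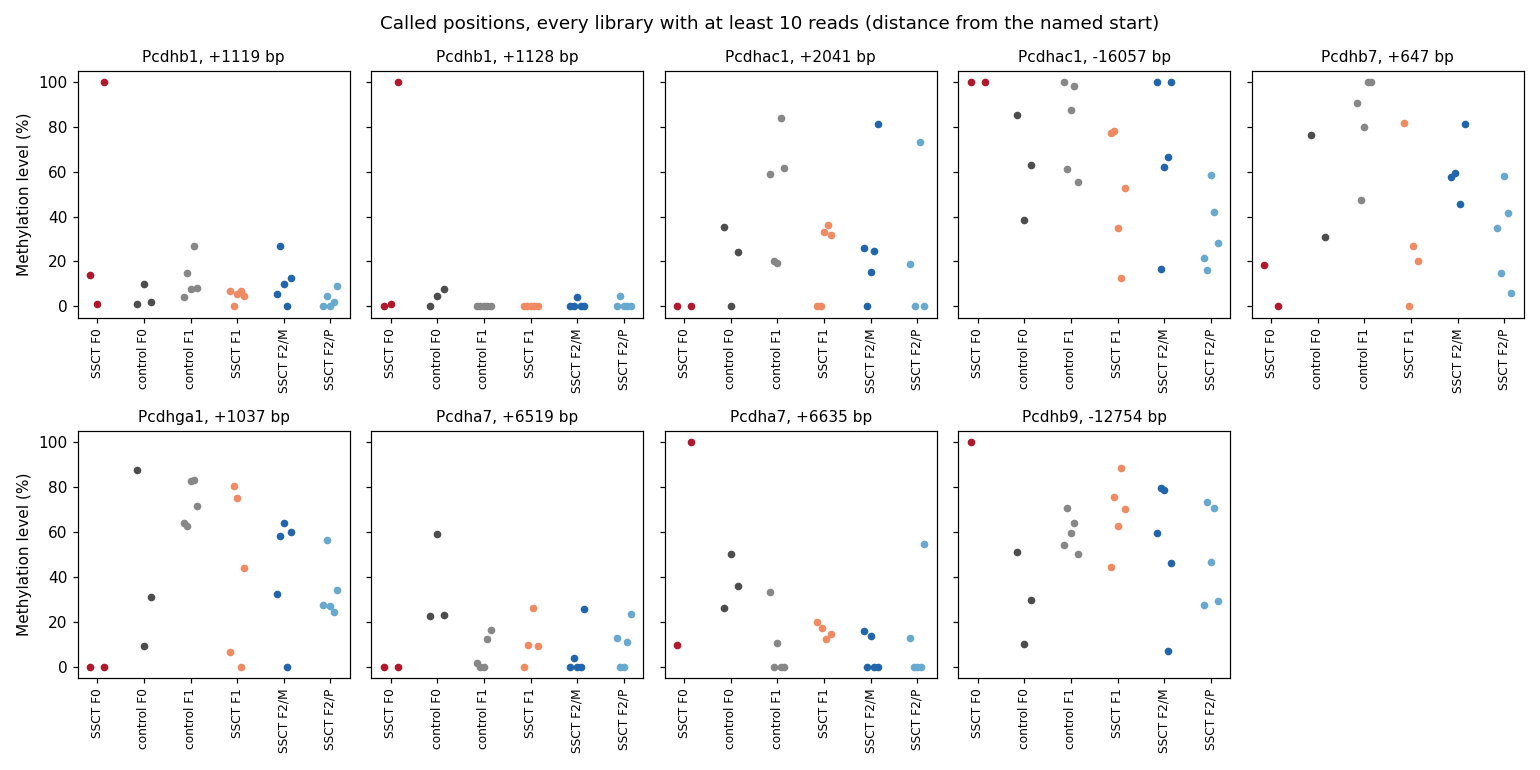
Methylation level in percent (vertical axis) at the 9 array positions called in any of the 5 comparisons, in the 6 groups as titled. Each point is a library with at least 10 reads. Values spread widely within groups, the 2 Pcdhb1 positions are at 100% only in SSCT F0 replicate 3, and at Pcdhga1 the control F1 mice (62.8% to 83.0%) lie above the SSCT F2/P mice (24.5% to 56.3%).

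Older control males were compared with young control offspring, a contrast without transplantation. In control F0 against control F1, 5 of 446 array positions were DMCs (0.863% of 745441 genome-wide), 2 higher and 3 lower in control F0. The higher ones lay 6519 and 6635 bp downstream of Pcdha7 (36980330 plus strand and 36980446 minus strand). The first was at 22.7%, 59.1% and 22.8% against 1.61%, 0%, 0%, 12.5% and 16.1%, without overlap (exact permutation p = 0.0179, unadjusted and taken after the call). Non-overlap was found at 5 of the 446 positions (1.12%), with no genome-wide share given, and is not read as a trait of the arrays. The lower ones were Pcdhac1 at 2041 bp, Pcdhga1 at 1037 bp and Pcdhb9 at -12754 bp (51.0%, 9.84% and 29.7% against 54.3%, 70.9%, 59.6%, 63.9% and 50.0%). The Pcdhac1 and Pcdhga1 positions are also calls of the offspring comparisons, which use the same control F1 mice. No array window of 89 was a DMR (0.855% of 141123 genome-wide), and the F test called 0 positions and 0 windows. That test had 3 positions and 0 windows over 25 points with an unadjusted p under 0.05.

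The mean over 446 positions was 11.6%, 10.7% and 10.4% in control F0 and 11.1%, 10.7%, 10.9%, 11.5% and 11% in control F1 (difference -0.126 points, exact permutation p = 0.732). None of 32 start windows was called (limma, 0.00735% of 13609 genes). Pcdhga7 had an unadjusted p under 0.05 (4.61% of all genes did), at 89.9% ± 6.34 against 99.1% ± 1.38 over 4 positions (limma adjusted p = 0.912). Set against all 20 offspring, which does not rest on the names, only 322 array positions could be tested. The Pcdhac1 position at 2041 bp was not among them. Of the 322, 1 was called, that upstream of Pcdhb9 (0.288% of 431890 genome-wide), and 0 of 73 windows was a DMR (0.306% of 101100).

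Related genes were low too. Of 12 listed non-clustered protocadherins, which are single genes of the same superfamily, 7 start windows were measured in the 20 offspring, with a median of 2.05% and none over 3.61%. Of 15 listed genes for chromatin architecture and DNA methylation, such as those for CTCF, cohesin and the methyltransferases, 5 were measured, with a median of 1.75%, and of 10 classical cadherins 1, at 1.52%. No gene of these lists was called by limma in any of the 5 comparisons. An unadjusted p under 0.05 was found in 2 of 36 tests of the non-clustered protocadherins, 2 of 37 of the architecture list and 0 of 5 of the cadherins, against 4.61% to 6.94% of all genes. Of the marker lists, 9 of 10 germline and 5 of 8 maternally imprinted promoters were measured in the offspring, none was called, and 2 of 39 and 2 of 21 tests had an unadjusted p under 0.05.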

How the data were processed

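The deposited files gave, per CpG position and strand, the fraction of methylated calls and the read count, as the authors made them from 50 bp single-end RRBS reads with Trim Galore 0.4.1 and Bismark 0.20.0 on GRCm38 (mm10), per the submitters' processing notes, which also list FastQC and methylKit 1.7.0. From these, methylated read counts were rebuilt. Positions entered a comparison with at least 10 reads and at most the library's 99.9th percentile in every library. DMCs and DMRs (1000 bp) used a logistic likelihood ratio test, Benjamini-Hochberg adjusted genome-wide, after the study's thresholds (q under 0.01, over 25 points). Start windows with at least 3 positions used limma 3.58.1 in R 4.3.3 on log2 ratios with 1 read added. Mean levels used exact two-sided permutation tests in Python 3.11.15. Scripts were tested on simulated data. Named genes were, per array, the 3 highest, 3 lowest and 3 most variable windows, the C-type genes, Pcdhb1 and all called members, others being chosen after their values were seen. Members and lists were chosen with earlier results of these data known. Replicates were separate mice, chosen by the study without siblings in a group, and groups followed the sample titles. Gene starts came from RefSeq (GRCm38.p6). Some listed genes had no strand in the tables and were not analysed here. No 2 libraries of 325 pairs agreed within sampling noise, and replicate numbers paired no samples.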

Additional observations from a re-analysis of the deposited data

Results flagged for a closer look

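Among 61 sets of 5 mice examined for a value far from the others, 7 had a highest or lowest mouse whose gap to its neighbour took more than the critical share of the range. For normally distributed values chance alone marks about 1 in 20, a rate that need not hold for levels bounded at 0%. For start windows these were Pcdhb13 in SSCT F2/M replicate 3 (55.1%, lowest), Pcdhga3 in SSCT F1 replicate 2 (33.1%, highest) and Pcdhga3 in SSCT F2/P replicate 3 (20.5%, highest). For single positions they were Pcdhb1 at 1128 bp in SSCT F2/P (4.67%) and SSCT F2/M (4.17%), where the other 4 mice were at 0%, Pcdha7 at 6519 bp in SSCT F2/M (25.7%) and Pcdha7 at 6635 bp in SSCT F2/P (54.5%). The difference between SSCT and control mean levels was compared between F0 and F1 over 49 positions, and the 2 effects (2.87 and -0.0171 points) did not pass the test (exact permutation p = 0.103, adjusted p = 0.206 over 4 tests). The F0 effect was 8.64 points over 7 Pcdhb positions, 1.82 over 4 Pcdha and 1.92 over 38 Pcdhg positions. The Pcdhb positions include the 2 of Pcdhb1 that were at 100% in SSCT F0 replicate 3.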

How the results depend on the processing

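The absence of called start windows was kept under all alternatives in the 5 comparisons. The level over all array positions was 12.8% at 20 reads and 11.7% to 12.3% without single mice. With the F test 0 DMCs and 0 DMRs were called in each comparison. On simulated data this test missed every change in the SSCT F0 design and most in the SSCT F1 design, so its counts of 0 say little about stability. With 5 reads, DMCs were 4 in SSCT F1, 4 in SSCT F2/M, 5 in SSCT F2/P and 10 in control F0, and DMRs 3 in SSCT F1 and 2 in SSCT F2/M; with 20 reads DMCs were 0 in SSCT F1 and 3 in control F0, and DMRs 0 in SSCT F1 and 0 in SSCT F2/P. With the names of the study's plot (and alike with F2 lines exchanged), DMCs were 3 in SSCT F1 and 0 in SSCT F2/P, and DMRs 0 in SSCT F1, 0 in SSCT F2/P and 1 in control F0. The positions tested and the genome-wide shares change with depth and names and are not given here. These counts therefore cannot be set against the genome. Against all 20 offspring, a contrast chosen after seeing the data, 1 of the 322 positions that could be tested was a DMC in control F0.

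Mean differences near 0 changed sign. For SSCT F1 they were -0.26 (5 reads), -0.104 (strands merged) and -0.19 points (both namings). For SSCT F2/M they were 0.0789 (5 reads), 0.329 (20 reads), 0.0113 (strands merged), 0.194 (read-weighted), 0.00463 (plot names) and 0.11 (lines exchanged). For SSCT F2/P they were 0.11 and 0.00463 under the namings, and the exact permutation p rose above 0.05 at -0.431 (5 reads), -0.449 (20 reads), -0.401 (strands merged), -0.565 (read-weighted) and, with the replicate number as a block, -0.347 points (p = 0.125). For control F0 they were 0.296 (20 reads) and 0.0059 (replicate block).

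Leaving out single mice, DMCs ranged from 2 to 27 (SSCT F0), 0 to 3 (SSCT F1), 0 to 3 (SSCT F2/M), 3 to 6 (SSCT F2/P) and 3 to 9 (control F0), DMRs from 1 to 5, 0 to 2, 0 to 1, 1 to 2 and 0 to 1, and mean differences from 0.301 to 1.77, -0.161 to 0.176, -0.257 to 0.207, -0.574 to -0.256 and -0.637 to 0.208 points. The positions tested change with the mouse left out, and genome-wide shares are given above only without SSCT F0 replicate 3. The read-weighted difference changed sign at Pcdhb1, 1128 bp, without SSCT F0 replicate 3 (-3.73 points, its window -1.53, against 75.1 and 75.6 without replicate 2), in the Pcdhac1 window under both namings (4.50), at Pcdhga1, 1037 bp (10.8 and 24.2, the first not in the means over mice), and upstream of Pcdhac1 with the lines exchanged (3.61). Replicate numbers shared no deviations, and beside these values the block lost the call of Pcdhac1, 2041 bp, in control F0 against control F1. The correlation of same-numbered mice stayed within 0.011 of 0. The cause of these shifts was not tested. The 19 members with no position read in all 20 offspring, 3 F0 mice per group and the few positions of SSCT F0 replicate 3 limit what could be seen.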
